A study of Mus musculus with 6 samples.

Results

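The genes described here are 50 components of Wnt signalling: 13 Wnt ligands, 2 proteins needed to secrete them, 10 Frizzled receptors, 4 co-receptors, 6 inhibitors outside the cell, β-catenin with 4 partners of its destruction complex, 4 TCF/LEF transcription factors and 6 targets or feedback inhibitors. They were taken by symbol from a table of 54532 genes, and all 50 were found. Gene coordinates given beside some of them cover the whole gene as deposited, on mm10. RNA was measured in 6 libraries of haploid mouse embryonic stem cells, which carry 1 set of chromosomes, all of strain 129SV. The 3 WT libraries carry the wild type haploid genotype. The 3 libraries of the other group are called P53ki in their titles, P53 - haploid in the genotype field and a knockout in the design text, and are called p53-deficient here. No treatment, time point, culture medium or feeder layer is given in the sources used here, nor whether the libraries of a group came from 1 line or clone or from separate cultures. The replicate spread behind every p-value here may thus be only technical, and p53 loss cannot be told apart from a difference between lines.

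Wnt proteins are secreted lipid-modified ligands. In the canonical arm a Wnt binds a Frizzled receptor and Lrp5 or Lrp6, the complex of Axin, Apc and Gsk3 stops marking β-catenin for destruction, and β-catenin joins TCF/LEF factors on target genes. In the non-canonical arm Wnt5a and related ligands act through Frizzled and Ror receptors on cell polarity and movement without β-catenin. In mouse embryonic stem cells the canonical arm is known to favour self-renewal, in large part by relieving repression by Tcf7l1. Ligands are assigned to an arm by their best-known action, and several, Wnt4 and Wnt11 among them, can act in both.

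Levels are given in FPKM, a fragment count divided by gene length and by library total, so levels of different genes can be set side by side. The rebuilt reads in genes ranged from 11536412 to 21218976 per library. Trp53, the targeted gene, fell from 68.0 ± 3.03 FPKM (SD, n = 3) in WT to 9.80 ± 0.155 (SD, n = 3) in p53-deficient libraries. Pou5f1 and Sox2, which define pluripotent cells, stood at 371 and 182 FPKM in WT and at 407 and 173 FPKM in p53-deficient libraries. Of the 8 pluripotency markers listed, 3 rose, 4 fell and Sox2 was not called, and their summed FPKM was 3370 to 3440 in WT and 2390 to 2460 in p53-deficient libraries, 1.41-fold lower. Dppa5a fell from 2010 to 1080 FPKM and made up most of that difference. Fibroblast markers were present as well. All 20 on a list of fibroblast genes were lower in every p53-deficient library than in every WT library, and 18 of 18 tested fell. Their summed FPKM was 895 to 913 in WT and 157 to 162 in p53-deficient libraries, 5.65-fold lower, and S100a4 was the one marker listed at 0 in a library. Col1a1, the main collagen of fibroblasts, fell from 210 to 30.9 FPKM, and the means of the 20 markers were lower by 2.25-fold (Twist1) to 12.7-fold (Prrx1). The summed FPKM of 4 Y-linked genes fell from between 3.51 and 3.94 to between 0.330 and 0.395, 10.4-fold lower. In bulk samples fewer cells of a type and less RNA per cell cannot be told apart. The fibroblast and Y-linked sums are thus given beside the falls described below. FPKM is divided by the library total, so the rises carry the same limit. Sums of other short marker lists, of 3 to 6 genes, moved both ways. Those of trophoblast and mesoderm were 1.76-fold and 3.62-fold higher in p53-deficient libraries. Those of primitive endoderm and neural ectoderm were 2.26-fold and 2.25-fold lower. The part of these sums in the falls and rises was not tested for any gene.

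CTTTGAT, the core of the sequence that TCF/LEF factors bind, was searched on both strands in promoter windows of 300 bases, 250 before to 50 after each RefSeq start (GRCm38.p6). Of the 50 Wnt genes, 32 had an entry, with 42 windows, and 3 windows (7.14%) held the motif, against 1225 of 32851 windows (3.73%) of all genes. The 3 genes were Sp5, a direct target of β-catenin, and the ligands Wnt5b and Wnt11. Stretches of all 3 are shown, 250 bases for Sp5, a readout of the pathway, and shorter ones for the other genes. A match is a description and not a site. All run 5′ to 3′ on the gene's strand with the motif in capitals, and no GENCODE exon overlaps them. The Sp5 stretch is the 250 bases before the start, at chr2:70474673-70474922 on the plus strand, with the motif 104 to 98 bases before the start. The Wnt5b stretch lies at chr6:119449425-119449484 on the minus strand, before a start inside the gene's deposited span, with the motif 71 to 65 bases before that start. The Wnt11 stretch lies at chr7:98835034-98835093 on the plus strand, with the motif on the opposite strand, 51 to 45 bases before the start.
Sp5: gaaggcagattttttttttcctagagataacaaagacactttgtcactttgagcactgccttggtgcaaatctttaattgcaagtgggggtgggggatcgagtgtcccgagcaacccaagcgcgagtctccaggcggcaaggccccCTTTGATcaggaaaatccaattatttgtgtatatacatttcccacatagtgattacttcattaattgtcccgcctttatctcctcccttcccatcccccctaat
Wnt5b: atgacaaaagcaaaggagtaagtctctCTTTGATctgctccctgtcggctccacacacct
Wnt11: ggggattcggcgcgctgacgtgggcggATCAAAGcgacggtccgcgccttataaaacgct
Sp5 and Wnt5b rose in p53-deficient libraries, with values given below under their roles, and Wnt11 was under the level at which genes were tested.

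Wnt genes changed in both directions. With a call at an adjusted p under 0.05 (limma, Benjamini-Hochberg over 15144 genes of mean FPKM at least 0.5), 39 of the 50 were tested and 35 were called, or 89.7%, against 66.5% of all genes tested. Of these, 16 rose (41.0%, against 35.3% of all genes) and 19 fell (48.7%, against 31.3%). The median log2 fold change of the tested Wnt genes, p53-deficient minus WT, was -0.12, against 0.03 over all genes tested. Changes of at least 2-fold on the log2(FPKM + 1) scale were called for 10 Wnt genes (25.6%, against 9.72% of all genes). Wnt7b, Porcn, Fzd5 and Sp5 rose by that much, and Wnt5a, Wls, Fzd1, Ror2, Dkk2 and Dkk3 fell by it. WT and p53-deficient libraries did not overlap in 37 of the 39 tested Wnt genes (94.9%, against 71.4% of all genes). The genes were chosen with earlier results of these data known, so the higher shares are a description and no test of the set. In 4 of the tested genes, Wnt8a, Wnt9a, Fzd1 and Fzd4, 1 group was under the filter level and only the other group carried the gene over it. When libraries were scaled by their median log2 ratio, 13 Wnt genes rose and 21 fell, and over all genes the split of 5341 higher and 4733 lower became 4069 and 5811.

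**Figure D1:**
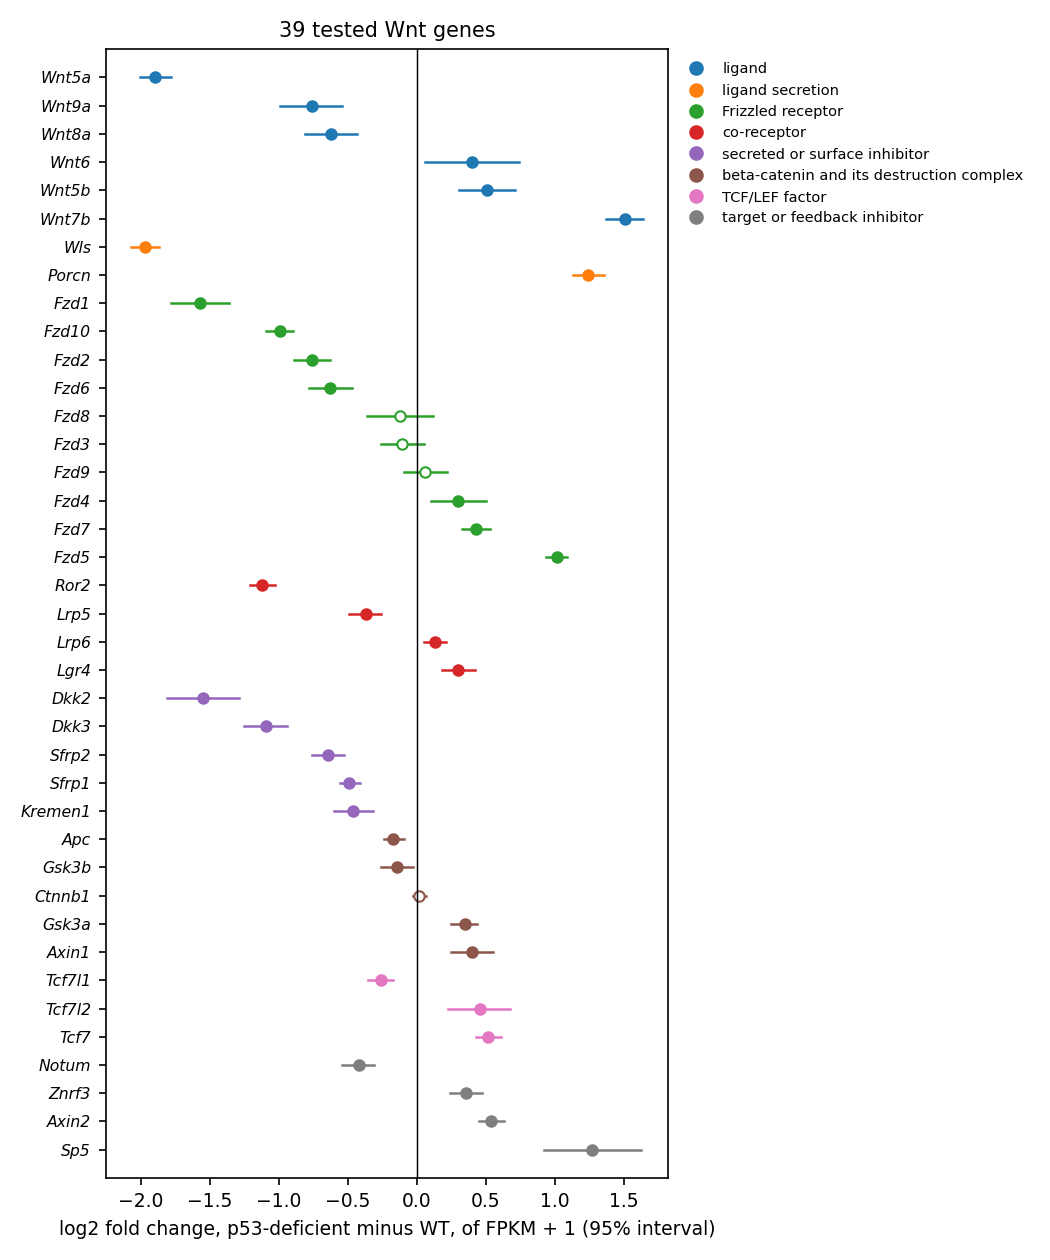
Log2 fold change of FPKM + 1, p53-deficient minus WT, for the 39 tested Wnt genes, with 95% intervals, grouped by role in colour; filled points were called and open points were not. Points lie on both sides of 0 in every role but the inhibitors outside the cell, where all 5 tested genes lie below 0.

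Among the ligands, the most abundant one changed from Wnt5a in WT to Wnt7b in p53-deficient libraries. Wnt5a (chr14:28504750-28527448, plus strand), the main non-canonical ligand, stood at 5.63, 5.62 and 5.80 FPKM in WT replicates 1 to 3 and at 0.845, 0.763 and 0.783 FPKM in p53-deficient replicates 1 to 3. All p53-deficient libraries were far below all WT libraries, a 7.13-fold lower mean, with a log2 fold change of -1.90 ± 0.0471 (SE, n = 3 per group, limma adjusted p = 3.59e-07). Wnt7b (chr15:85535437-85582473, minus strand), a canonical ligand of epithelia and the nervous system, stood at 0.698, 0.756 and 0.664 FPKM in WT and at 3.76, 3.75 and 4.06 FPKM in p53-deficient libraries. It was 5.46-fold higher, without overlap, with a log2 fold change of 1.51 ± 0.0563 (SE, limma adjusted p = 1.80e-06). Beside the fall of Wnt5a, the fibroblast marker sum was 5.65-fold and the Y-linked sum 10.4-fold lower in the same libraries. Wnt5a is also expressed by fibroblasts. Wnt7b rose in the same libraries, and what part the marker differences had in either change was not tested.

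Wnt5b, the closest relative of Wnt5a, rose from 0.653 ± 0.105 to 1.35 ± 0.144 FPKM (SD, n = 3), so the 2 Wnt5 genes moved in opposite directions. Its WT libraries read 0.764, 0.554 and 0.641 FPKM and its p53-deficient libraries 1.36, 1.21 and 1.49 FPKM, with a log2 fold change of 0.51 (95% interval 0.31 to 0.71, limma adjusted p = 0.00151). Wnt8a and Wnt9a, both canonical, fell. Wnt8a, a ligand of the primitive streak, stood at 1.03, 0.959 and 0.862 FPKM in WT and at 0.272, 0.198 and 0.325 FPKM in p53-deficient libraries. Wnt9a stood at 1.27, 1.46 and 1.74 FPKM in WT and at 0.528, 0.494 and 0.375 FPKM in p53-deficient libraries. Their log2 fold changes were -0.62 and -0.76 (limma adjusted p = 4.69e-04 and 3.94e-04), and neither gene's groups overlapped. Wnt8a and Wnt9a passed the filter only through WT, where they are high, so their falls went with their being tested. Both fell in the libraries with the 5.65-fold lower fibroblast and 10.4-fold lower Y-linked sums. Wnt6, a canonical ligand, rose from 0.592 ± 0.169 to 1.11 ± 0.362 FPKM (log2 fold change 0.40, limma adjusted p = 0.0439). That call was lost without WT replicate 1 or 3 or p53-deficient replicate 1 or 3, with adjusted p between 0.0701 and 0.121, and also with no filter (0.0961) and under scaling by the median log2 ratio (0.0979).

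The other 7 ligands were under the tested level and are given as reads, summed over the 3 libraries of each group. Wnt3, which is needed to form the primitive streak, had 67 reads in WT and 8 in p53-deficient libraries, and its FPKM of 0.313 to 0.433 and 0.0281 to 0.0618 did not overlap. Allowing for depth, its reads were 7.31-fold fewer in p53-deficient libraries (95% interval of the counting error 3.5 to 17.6). Wnt4, placed in the non-canonical arm, had 98 and 24 reads, a ratio of 3.56 (2.26 to 5.82) without overlap between groups. Wnt10a had 21 and 7 reads and Wnt10b 19 and 2, each with 0 reads in 1 p53-deficient library, which allows up to 3 reads there. The ratio for Wnt10b was 8.29 with an interval from 2.00 to 73.4. Wnt3a had 27 and 23 reads, Wnt7a 9 and 24 reads, and Wnt11 110 and 96 reads, and the libraries of the groups overlapped for each of these 3. The lower reads of Wnt3, Wnt4, Wnt10a and Wnt10b stand beside the lower fibroblast and Y-linked sums of the same libraries.

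**Figure D2:**
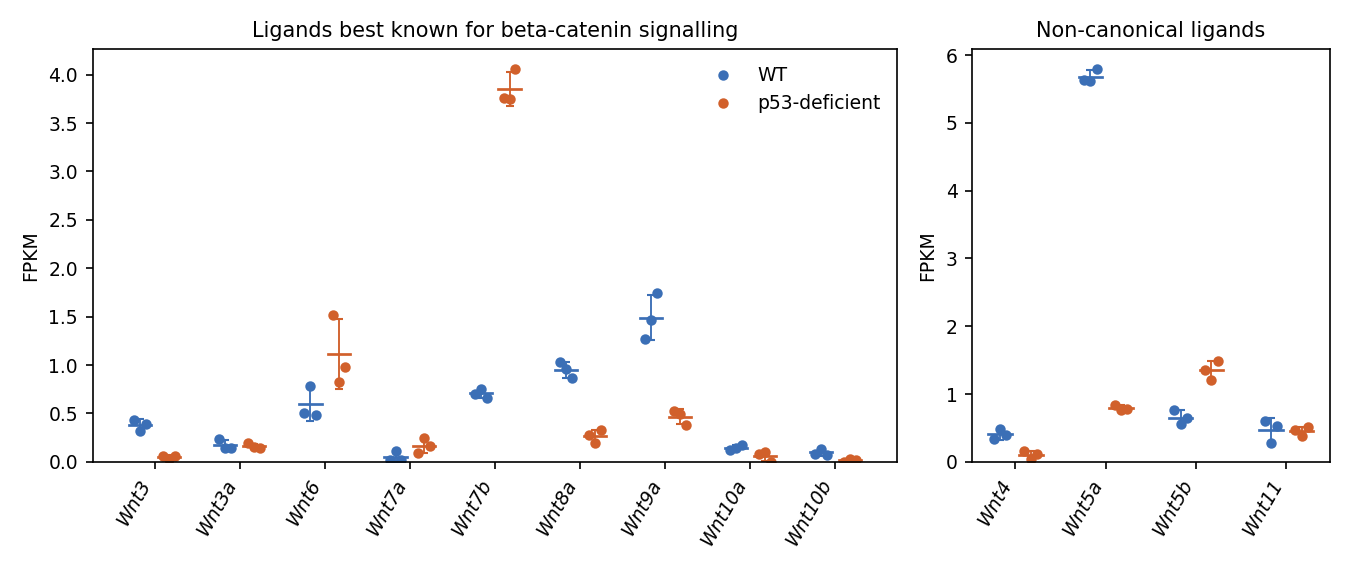
FPKM of the 9 canonical (left) and 4 non-canonical (right) Wnt ligands in each library on linear axes of different range; points are libraries, horizontal lines group means and bars 1 SD (n = 3). Wnt5a is the highest ligand in WT, at 5.62 to 5.80 FPKM, and Wnt7b the highest in p53-deficient libraries, at 3.75 to 4.06 FPKM.

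Summed over all 13 ligands, FPKM went from 11.8 ± 0.108 in WT to 8.85 ± 0.574 in p53-deficient libraries (SD, n = 3). The non-canonical ligands held 62.6, 59.0 and 61.8% of that sum in WT replicates and 30.4, 29.1 and 32.1% in p53-deficient replicates, so the groups lie well apart. Wnt5a alone went from 48.2% to 9.01% of the ligand sum, Wnt7b from 5.99% to 43.6%, Wnt5b from 5.54% to 15.3% and Wnt6 from 5.03% to 12.4%. In FPKM, the canonical ligands summed to 4.38, 4.82 and 4.55 in WT and to 6.49, 5.83 and 6.12 in p53-deficient libraries. The non-canonical ligands summed to 7.33, 6.92 and 7.36 in WT and to 2.84, 2.39 and 2.89 in p53-deficient libraries. The direction of each arm's sum rested on 1 gene, as sums chosen after the values were seen show. Without Wnt7b the canonical ligands summed to 3.88 ± 0.187 in WT and 2.29 ± 0.385 in p53-deficient libraries, and without Wnt5a the non-canonical ligands summed to 1.52 ± 0.198 and 1.91 ± 0.253. These are sums of a few genes and were given no test.

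**Figure D3:**
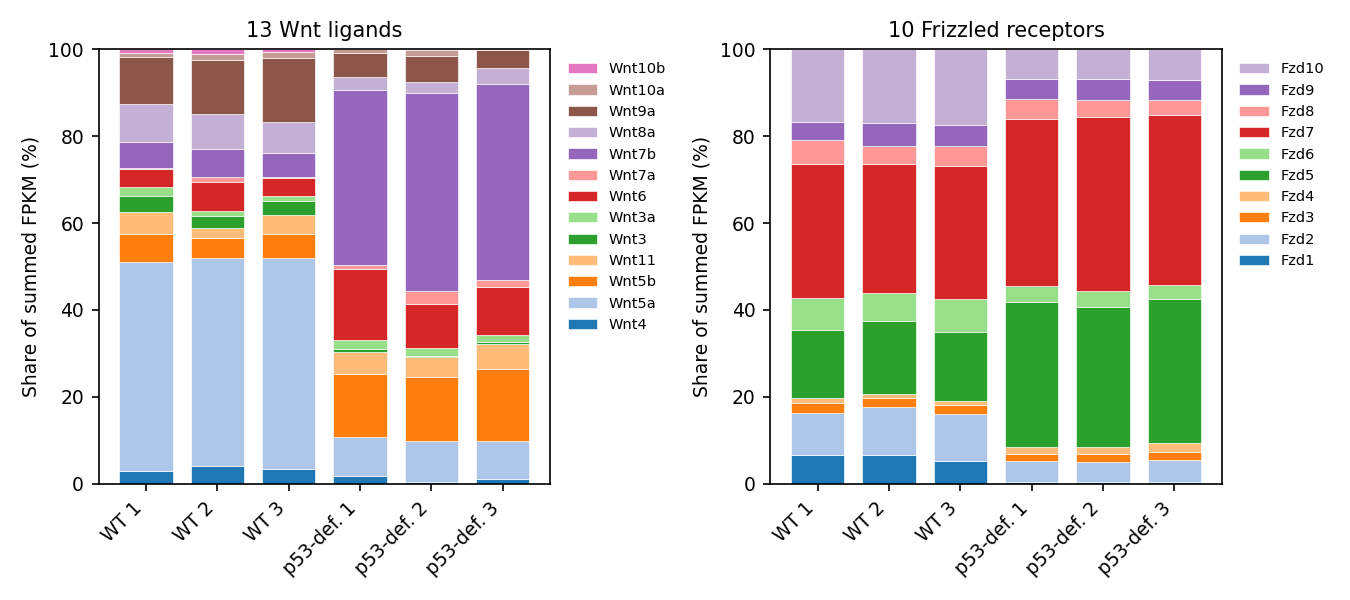
Share of the summed FPKM, in percent, held by each of the 13 Wnt ligands (left) and 10 Frizzled receptors (right) in every library. Wnt5a takes 47.8 to 48.7% of the ligand sum in WT, Wnt7b takes 40.3 to 45.6% in p53-deficient libraries, and Fzd5 with Fzd7 goes from 46.2 to 46.5% to 71.8 to 72.3% of the receptor sum.

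The genes for ligand secretion split. Porcn (chrX:8193848-8206525, minus strand), the enzyme of the endoplasmic reticulum that attaches the lipid to Wnt proteins, stood at 9.17, 10.5 and 9.84 FPKM in WT and at 24.5, 24.9 and 24.5 FPKM in p53-deficient libraries. It rose 2.50-fold with a log2 fold change of 1.24 ± 0.0474 (SE, n = 3 per group, limma adjusted p = 1.97e-06). Wls (chr3:159839672-159938664, plus strand), the carrier that takes lipid-modified Wnts to the cell surface, stood at 9.37, 9.09 and 9.53 FPKM in WT and at 1.68, 1.60 and 1.62 FPKM in p53-deficient libraries. The 2 genes were thus at like levels in WT and far apart in p53-deficient libraries. The fall of Wls was 5.70-fold, with a log2 fold change of -1.97 ± 0.0397 (SE, limma adjusted p = 1.60e-07), beside the 5.65-fold lower fibroblast marker sum and the 10.4-fold lower Y-linked sum.

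The Frizzled receptors changed in both directions, and their summed FPKM was 40.4 ± 0.773 in WT and 42.9 ± 0.626 in p53-deficient libraries. Of 10 tested, 3 rose, 4 fell and 3 were not called, so the share called was close to the 66.5% of all genes. Fzd5 and Fzd7 were the receptors that gained most in FPKM. Fzd5 (chr1:64730558-64737751, minus strand), which can carry both Wnt arms, stood at 6.41, 6.67 and 6.39 FPKM in WT and at 14.1, 14.1 and 14.3 FPKM in p53-deficient libraries, with a log2 fold change of 1.02 ± 0.0303 (SE, limma adjusted p = 7.35e-07). Fzd7, the most abundant Frizzled in both groups and known as a receptor of pluripotent cells, stood at 12.8, 11.7 and 12.3 FPKM in WT and at 16.2, 17.4 and 16.8 FPKM in p53-deficient libraries (log2 fold change 0.43, limma adjusted p = 1.30e-04). Neither gene's groups overlapped, and together they went from 46.4 ± 0.122% to 72.1 ± 0.320% of the Frizzled sum. Fzd4, a low receptor best known from retinal vessels, rose from 0.399 to 0.723 FPKM (log2 fold change 0.30, limma adjusted p = 0.0167). It passed the filter only through the p53-deficient libraries, where it is higher, so its rise went with its being tested. The call of Fzd4 was lost without WT replicate 2 or p53-deficient replicate 3 (adjusted p = 0.0553 and 0.0573) and under scaling by the median log2 ratio (0.0702).

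Fzd1, Fzd2, Fzd6 and Fzd10 fell. Fzd1 (chr5:4753839-4758035, minus strand) stood at 2.69, 2.65 and 2.11 FPKM in WT and at 0.215, 0.144 and 0.149 FPKM in p53-deficient libraries. Its mean was 14.7-fold lower, the steepest ratio of means among the 39 tested Wnt genes, with a log2 fold change of -1.57 ± 0.0883 (SE, limma adjusted p = 1.08e-05). Fzd1 passed the filter only through WT, where it is high, so its fall and its rank went with its being tested. Fzd10 fell from 6.92 ± 0.125 to 2.99 ± 0.0961 FPKM (log2 fold change -0.99, limma adjusted p = 2.36e-06). In WT it came after Fzd7 alone among the Frizzled genes, with libraries at 6.79 to 7.04 FPKM just above the 6.39 to 6.67 FPKM of Fzd5. Fzd2 fell from 4.24 to 2.09 FPKM and Fzd6, a receptor of planar polarity, from 2.91 to 1.53 FPKM, with log2 fold changes of -0.76 and -0.63. The WT and p53-deficient libraries did not overlap in any of these 4 genes. The fibroblast marker sum was lower by 5.65-fold in the same libraries and the Y-linked sum by 10.4-fold. Fzd3, Fzd8 and Fzd9 were not called, at 0.877 and 0.745, 1.92 and 1.69, and 1.91 and 2.03 FPKM in WT and p53-deficient libraries. The 95% intervals of their log2 differences ran from -0.26 to 0.05, -0.36 to 0.12 and -0.09 to 0.22. The calls of Fzd3 and Fzd9 depended on the processing: Fzd3 was called lower when scaled by the median log2 ratio (-0.20, adjusted p = 0.0354) and with voom weights (-0.29, adjusted p = 0.0141), and Fzd9 higher under quantile normalization (0.18, adjusted p = 0.0440), with signs opposite to these for Fzd3 under quantile normalization (0.01) and for Fzd9 under the median ratio (-0.03).

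**Figure D4:**
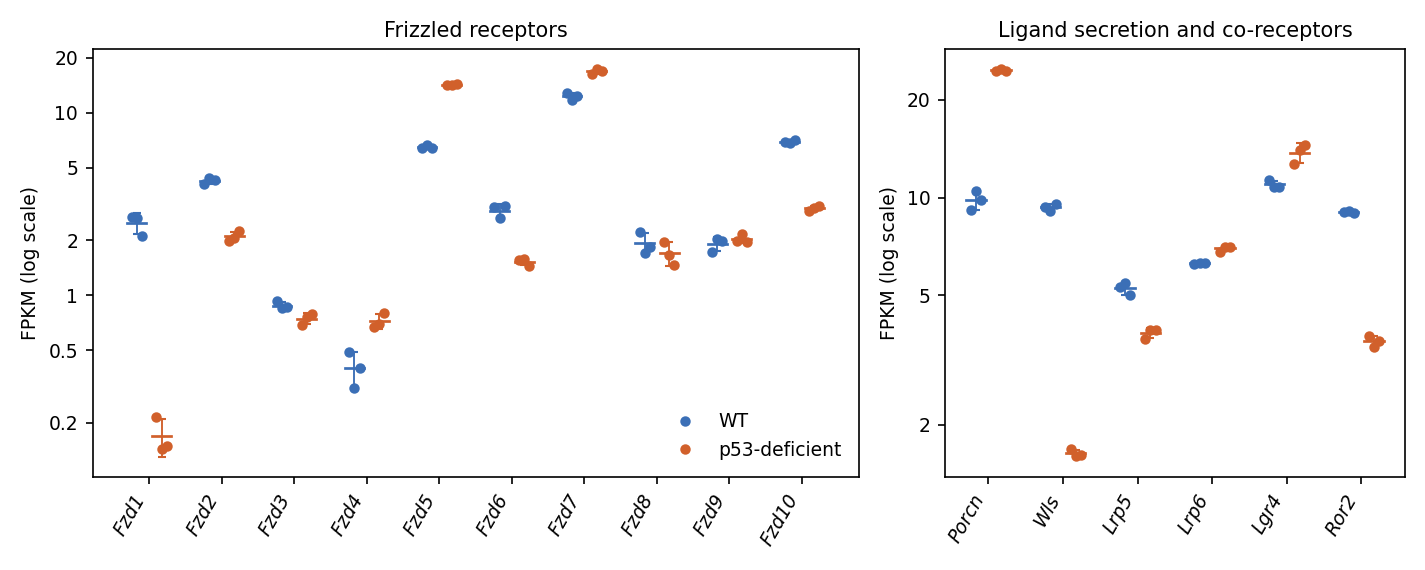
FPKM on log axes of the 10 Frizzled receptors (left) and of the secretion genes and co-receptors (right); points are libraries, horizontal lines group means and bars 1 SD (n = 3). Fzd1, Fzd10, Wls and Ror2 lie lower and Fzd5, Fzd7 and Porcn higher in all 3 p53-deficient libraries than in all WT libraries.

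Of the co-receptors, 2 rose and 2 fell. Ror2 (chr13:53109312-53286124, minus strand), a receptor kinase through which Wnt5a acts, stood at 9.0, 9.09 and 8.98 FPKM in WT and at 3.75, 3.47 and 3.61 FPKM in p53-deficient libraries. It fell 2.50-fold (log2 fold change -1.12 ± 0.0380 SE, limma adjusted p = 1.21e-06). Wnt5a and this receptor were both lower in the same libraries, as were the fibroblast marker sum (5.65-fold) and the Y-linked sum (10.4-fold). Other non-canonical receptors did not all fall. Ryk, from the other pathway genes and named after its values were seen, rose from 19.1 to 22.2 FPKM (0.21, limma adjusted p = 2.10e-04). Of 12 tested planar polarity genes and non-canonical receptors there, 6 rose and 5 fell. The canonical co-receptors changed less than Ror2. Lrp5 fell from 5.26 ± 0.235 to 3.83 ± 0.134 FPKM (-0.37 on the log2 scale) in these same libraries, and Lrp6, a close homologue with the same role, rose from 6.27 ± 0.0164 to 6.97 ± 0.144 FPKM (0.13, limma adjusted p = 0.0106). The call of Lrp6 was lost under scaling by the median log2 ratio, with a log2 fold change of 0.04 and an adjusted p of 0.394. Lgr4, a receptor for R-spondins that protects Frizzled receptors from removal, rose from 11 ± 0.302 to 13.8 ± 0.906 FPKM (0.30, limma adjusted p = 0.00196).

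The 5 tested inhibitors of the 6 chosen that act outside or on the surface of the cell fell, against 31.3% of all genes called lower. Among tested genes placed with the feedback inhibitors that also act there, Znrf3 rose and Notum fell. The shared fall thus holds for the 6 chosen genes only. Of other pathway inhibitors, described further on, 5 rose and 2 fell of 8 tested. Tpbg and Kremen2 at the cell surface were among those that rose. Sfrp4, a relative of Sfrp1 and Sfrp2, was among those that fell, from 1.29 to 0.624 FPKM (limma adjusted p = 0.00796). That list is mixed and also holds genes that act inside the cell, such as Dact2. The summed FPKM of the 6 on the list was 28.9, 28.6 and 28.5 in WT and 15.6, 15.4 and 15.8 in p53-deficient libraries, 1.84-fold lower. Dkk2 (chr3:132085292-132180304, plus strand), a ligand of Lrp6 that blocks Wnt in most settings, stood at 3.61, 3.82 and 3.34 FPKM in WT and at 0.346, 0.607 and 0.765 FPKM in p53-deficient libraries (log2 fold change -1.55 ± 0.108 SE, limma adjusted p = 2.85e-05). Dkk3 (chr7:112116017-112159057, minus strand), a divergent relative, stood at 4.26, 3.78 and 4.31 FPKM in WT and at 1.51, 1.29 and 1.38 FPKM in p53-deficient libraries (-1.09, limma adjusted p = 1.44e-05). The means of these 2 genes were 6.27-fold and 2.95-fold lower, and no p53-deficient library reached a WT library. Sfrp1 and Sfrp2, decoys that bind Wnts outside the cell, fell from 9.19 ± 0.167 to 6.27 ± 0.0230 and from 6.84 ± 0.183 to 4.03 ± 0.244 FPKM (-0.49 and -0.64). Kremen1, a Dkk receptor that removes Lrp6 from the surface, fell from 4.60 ± 0.334 to 3.06 ± 0.108 FPKM (-0.46, limma adjusted p = 4.29e-04). The groups of these 3 genes did not overlap either. Dkk1, the best-known Lrp6 blocker, was under the tested level with 47 reads in WT and 30 in p53-deficient libraries, and its libraries overlapped. Sfrp1, Sfrp2 and Dkk3 are also expressed by fibroblasts. The fibroblast marker sum was 5.65-fold and the Y-linked sum 10.4-fold lower in these libraries.

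Ctnnb1 changed little and its partners moved in both directions. Ctnnb1, which encodes β-catenin, was the most abundant Wnt gene, at 107, 109 and 109 FPKM in WT and 112, 110 and 110 FPKM in p53-deficient libraries. It was not called, with a log2 difference of 0.02 and a 95% interval of -0.03 to 0.07. Its direction depended on the scaling: the value was -0.07 and called lower both after scaling by the median log2 ratio (adjusted p = 0.0160) and after quantile normalization (adjusted p = 0.0155). Axin1, the scaffold of the complex that marks β-catenin for destruction, rose from 24.0 ± 1.17 to 32.0 ± 2.50 FPKM (0.40, limma adjusted p = 0.00127). Its libraries read 22.6, 24.5 and 24.8 in WT and 32.1, 29.5 and 34.5 in p53-deficient libraries, without overlap. Gsk3a, 1 of the 2 kinases, rose from 23.0 ± 0.682 to 29.6 ± 1.24 FPKM (0.35). Exons of an opposite-strand gene of 1.40 mean FPKM overlap 28.3% of its exon length, and reads of the pair cannot be told apart. Its paralogue Gsk3b fell from 10.2 ± 0.482 to 9.13 ± 0.432 FPKM (-0.14, limma adjusted p = 0.0366), a call lost without WT replicate 2 or 3 or p53-deficient replicate 1 or 3 (adjusted p 0.0919 to 0.113) and with no filter (0.0647). Apc, the second scaffold, fell from 8.86 ± 0.111 to 7.78 ± 0.169 FPKM (-0.17, limma adjusted p = 0.00325) and shares a near-identical stretch with 1 expressed small transcript, so its value is uncertain to that extent. Gsk3b and Apc fell in the libraries in which the fibroblast sum was 5.65-fold and the Y-linked sum 10.4-fold lower.

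The TCF/LEF factors had a summed FPKM of 54.5 ± 1.86 in WT and 53.9 ± 0.278 in p53-deficient libraries, and their proportions moved. Tcf7l1, the repressor of the family in stem cells, was the most abundant in both groups. It stood at 38.1, 42.1 and 40.1 FPKM in WT and at 33.1, 33.4 and 33.2 FPKM in p53-deficient libraries, a fall of 0.26 on the log2 scale (limma adjusted p = 8.64e-04). Tcf7, which works with β-catenin as an activator, stood at 12.8, 12.4 and 13.2 FPKM in WT and at 19.4, 18.0 and 18.8 FPKM in p53-deficient libraries (log2 fold change 0.52, limma adjusted p = 3.54e-05). Tcf7l1 thus went from 73.5 ± 1.17% to 61.6 ± 0.639% of the TCF/LEF sum and Tcf7 from 23.5 ± 1.28% to 34.7 ± 1.09%, without overlap between the groups. Tcf7l2, low in these cells, rose from 0.999 to 1.74 FPKM (0.46, limma adjusted p = 0.00443). Lef1 was under the tested level, with 328 reads in WT and 102 in p53-deficient libraries. Its FPKM of 0.580 to 0.768 and 0.206 to 0.249 did not overlap, and its reads were 2.81-fold fewer in p53-deficient libraries (95% interval of the counting error 2.24 to 3.54). Tcf7l1 and Lef1 were lower in the libraries in which the fibroblast sum was 5.65-fold and the Y-linked sum 10.4-fold lower.

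Of the 4 tested targets and feedback inhibitors, Axin2, Sp5 and Znrf3 rose and Notum fell. Axin2 (chr11:108920349-108950783, plus strand), the feedback scaffold often used as a readout of β-catenin activity, stood at 3.32, 3.49 and 3.48 FPKM in WT and at 5.40, 5.50 and 5.43 FPKM in p53-deficient libraries. It was 1.58-fold higher with little scatter (log2 fold change 0.54 ± 0.0385 SE, limma adjusted p = 3.16e-05). Sp5 (chr2:70474923-70477729, plus strand), the transcription factor whose promoter stretch with CTTTGAT is printed above, stood at 0.689, 0.870 and 0.925 FPKM in WT and at 4.32, 2.55 and 3.54 FPKM in p53-deficient libraries. It was 4.19-fold higher, with the wide spread of the p53-deficient libraries showing in its error (1.27 ± 0.149 SE, limma adjusted p = 3.20e-04). Znrf3, a ubiquitin ligase that removes Frizzled receptors, rose from 3.11 ± 0.0755 to 4.27 ± 0.198 FPKM (0.36, limma adjusted p = 5.59e-04). Its partner Rnf43 was under the tested level with 55 and 10 reads, without overlap between groups. Notum, a secreted enzyme that removes the lipid from Wnts, stood at 10.2, 10.8 and 10.2 FPKM in WT and at 7.99, 7.15 and 7.41 FPKM in p53-deficient libraries (-0.42, limma adjusted p = 2.79e-04). Exons of an opposite-strand gene, Notumos, at 1.56 mean FPKM, overlap 29.4% of its exon length, so their reads cannot be told apart. Notum and Rnf43 were lower beside the lower fibroblast and Y-linked sums. Nkd1, an inhibitor of Dishevelled induced by Wnt, had 60 and 44 reads and its libraries overlapped. These targets therefore did not share 1 direction.

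**Figure D5:**
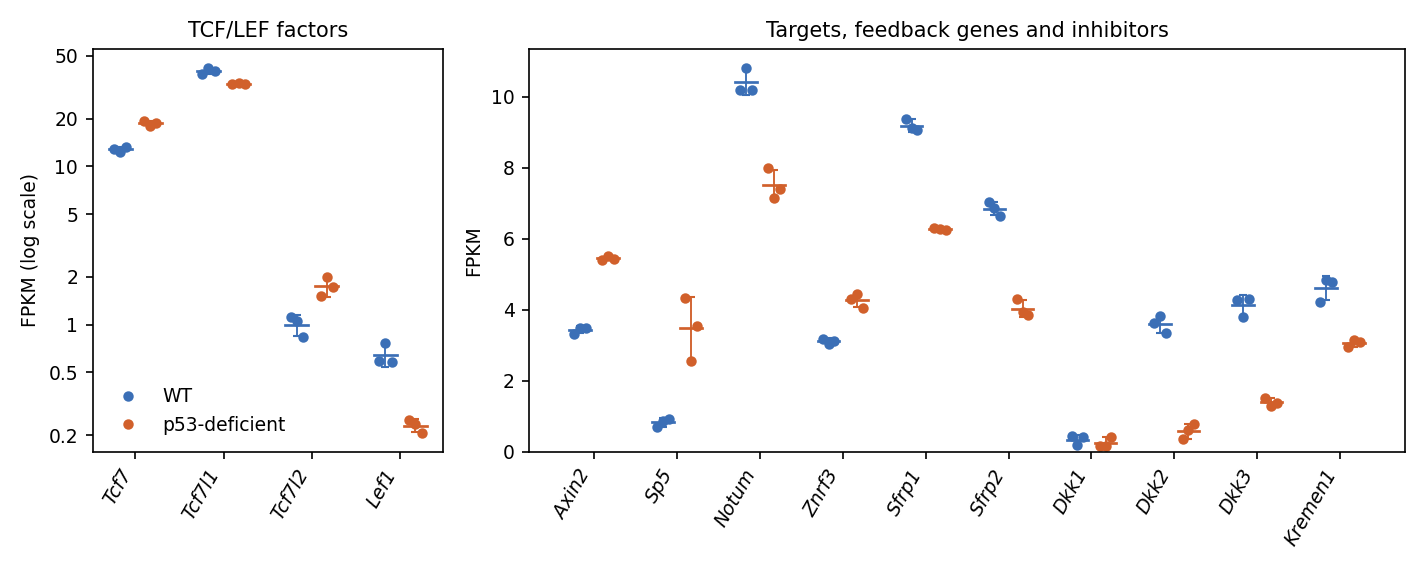
FPKM of the 4 TCF/LEF factors on a log axis (left) and of 4 targets or feedback genes and 6 inhibitors outside the cell on a linear axis (right); points are libraries, horizontal lines group means and bars 1 SD (n = 3). Axin2, Sp5 and Znrf3 lie higher in all 3 p53-deficient libraries, and Notum, Sfrp1, Sfrp2, Dkk2, Dkk3 and Kremen1 lie lower.

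Set side by side, the canonical arm held 30 of the genes, of which 21 were tested, 11 rose and 9 fell, with a median log2 fold change of 0.13. The non-canonical arm, the 4 ligands with Ror2, had 3 tested genes, of which Wnt5b rose and Wnt5a and Ror2 fell, with a median of -1.12. The 15 genes placed in both arms had 4 higher and 8 lower, with a median of -0.49. They include the inhibitors Sfrp1, Sfrp2 and Dkk3, and also Fzd1 and Fzd4, which passed the filter through 1 group only. The canonical list likewise mixes activators with inhibitors such as Dkk2, Apc and Axin1. Counts of rises and falls thus give no direction of signalling. Over all genes 35.3% rose and 31.3% fell. The median of the 4 tested canonical ligands, of which Wnt8a and Wnt9a passed the filter only through WT, was -0.11. Each of these medians is of few genes, is set beside 0.03 over all genes tested, and shows no difference between the arms by itself. With no filter on low values all 5 non-canonical genes entered and their median was -0.35.

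Among 72 other genes of the pathway, 49 were tested, 22 rose and 21 fell, with a median log2 fold change of 0.01, where 35.3% of all genes rose and 31.3% fell. The groups within this list are small, and their counts are given as a description against those same shares. Signal transduction genes, such as the Dishevelled and casein kinase genes, had 5 higher and 9 lower of 16 tested. Planar polarity genes and non-canonical receptors had 6 higher and 5 lower of 12, other inhibitors 5 and 2 of 8, and other known targets 3 and 3 of 8. None of 6 further Wnt ligands reached the tested level. Of 6 R-spondins and their receptors 1 was tested, Rspo3, named after its values were seen, which fell from 0.984 to 0.0431 FPKM. Rspo3 passed the filter only through WT, where it is high, so its fall went with its being tested. T, 1 of the other known targets and also named after its values were seen, rose from 0.164 to 1.51 FPKM (22 and 178 reads). It passed the filter only through the p53-deficient libraries, so its rise went with its being tested. Dact2, a regulator of Dishevelled and of Nodal receptors, stood at 4.68, 4.97 and 4.70 FPKM in WT and at 15.9, 14.9 and 16.1 FPKM in p53-deficient libraries (1.52, limma adjusted p = 5.41e-07). Ptk7, a co-receptor of planar polarity, stood at 50.3, 50 and 50.6 FPKM in WT and at 20.5, 19.7 and 21.6 FPKM in p53-deficient libraries (-1.25, limma adjusted p = 5.71e-07). Ptk7 fell in the libraries in which the fibroblast marker sum was 5.65-fold and the Y-linked sum 10.4-fold lower, as for Ror2. Myc, a growth regulator and known target of β-catenin among other inputs, stood at 7.16, 6.91 and 6.52 FPKM in WT and at 18.2, 17.1 and 16.6 FPKM in p53-deficient libraries (1.22, limma adjusted p = 2.17e-06).

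Bcl9 and Pygo2, which link β-catenin to the transcription machinery, rose from 3.14 to 5.27 and from 14.6 to 24.1 FPKM (0.60 and 0.68). Kremen2, a relative of Kremen1, rose from 0.735 to 1.58 FPKM (0.57) and Tpbg, a surface inhibitor of Wnt, from 6.34 to 9.46 FPKM (0.51). Csnk1g1, a kinase that acts on Lrp6, fell from 3.99 to 2.35 FPKM (-0.58), beside the same lower marker sums. None of the 8 genes named from this list by the rule given below had overlapping groups, which was a condition for naming them. Of 4 genes that Tcf7l1 is known to repress in stem cells, 3 rose and 1 fell. Esrrb rose from 54.4 ± 0.379 to 101 ± 1.61 FPKM (0.88), Tfcp2l1 from 39.0 to 49.7 FPKM (0.34) and Klf2 from 95.3 to 110 FPKM (0.21). Nanog, the remaining one, stood at 330, 329 and 331 FPKM in WT and at 214, 225 and 224 FPKM in p53-deficient libraries. Its fall was 0.57 on the log2 scale. Nanog is on the list of pluripotency markers and not on that of fibroblast genes. The fibroblast and Y-linked sums were lower in the same libraries, and their part in its fall was not tested. The 1.41-fold lower pluripotency sum is no separate measure here, since it holds Nanog and its difference is mostly Dppa5a. Of its 8 markers 3 rose. Like the Wnt targets, these genes did not share 1 direction.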

How the data were processed

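The authors deposited 1 table of FPKM, in which fragment counts are divided by gene length and library total, for 54532 genes in 6 libraries. The submitters' processing notes name mm10, HISAT2 2.0.5 and featureCounts 1.5.0-p3, without their roles. Per the labels' protocols, libraries were made from poly-T purified mRNA with NEBNext Ultra reagents, and whether strand was kept is not given in the sources.

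The Wnt genes were matched by symbol. The genes and lists were chosen with earlier results of these data known. Named are all 50, and of 72 other pathway genes the 8 called with the largest change in size, of mean FPKM at least 1 and without overlap between groups, with 4 genes repressed by Tcf7l1. Tpbg, the last of the 8 at 0.51, tied after rounding with Gpc4 (0.51) and Prickle1 (-0.51) and was taken by list order. Rspo3, Ryk, Sfrp4 and T were named outside this rule, after their values were seen.

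Differences were fitted on log2(FPKM + 1) with limma 3.58.1 (variance trend, two-sided, R 4.3.3), on all 6 libraries and the 15144 genes of mean FPKM at least 0.5, adjusted by Benjamini-Hochberg and called at 0.05. A fold change on this scale understates the change of low genes. The fit was first tested on simulated data. Permuting 3 against 3 libraries cannot give an exact p under 0.1, so genes were not tested that way. The product of FPKM and gene length was a whole number of reads for 100% of values above 0 (tolerance 0.05 reads). Reads rebuilt this way, 11536412 to 21218976 per library, gave totals and ratios with exact intervals that cover counting error only. The treatment of multiply mapping reads is not stated. Of the 50 genes, 47 had the same coordinates in GENCODE release 21, which was used for overlaps, and BLAST+ 2.17.0 for near-identical copies (95% identity). Alternatives were a pseudocount of 0.1, no filter, 2 other scalings, voom on the rebuilt reads, the replicate number as a block and each library left out.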

Additional observations from a re-analysis of the deposited data

How the results depend on the processing

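The number of Wnt genes called higher stayed between 13 and 17 over 12 alternatives and the number called lower between 18 and 23. Leaving out 1 library at a time gave 14 to 16 higher and 18 to 19 lower. Of 468 values, 39 tested genes under 12 alternatives, 443 kept their direction and call, 16 lost the call, 3 gained it and 6 turned sign, and 31 genes kept both throughout. The sign turned for Ctnnb1 under median-ratio scaling (-0.07), quantile normalization (-0.07) and voom (-0.02), for Fzd9 under median-ratio scaling (-0.03), and for Fzd8 (0.00) and Fzd3 (0.01) under quantile normalization. The median log2 fold change of the canonical ligands, -0.11, became -0.35 when 0.1 was the pseudocount, -0.40 with voom, and 0.01 after quantile normalization. That of the non-canonical ligands with Ror2, -1.12, was -1.30 with a pseudocount of 0.1, -0.35 with no filter, where 5 genes enter in place of 3, -1.22 under median-ratio scaling, -1.07 after quantile normalization and -1.35 with voom. The smaller pseudocount by construction gives larger changes for low genes, and for the other shifts the cause was not tested.

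With a replicate block, 15 Wnt genes were higher and 19 lower, and the call lost was that of Wnt6 (adjusted p = 0.0811, range over its alternatives 0.00636 to 0.121). Deviations of same-numbered libraries correlated at -0.0328, 0.0142 and 0.00556, and not every library correlated best with its own number, so the samples share only a number and were not treated as paired. Called changes of at least 2-fold numbered 10, 13 with a pseudocount of 0.1, 15 with voom and 9 after quantile normalization. Low reads limit the 11 untested genes: with no filter, Wnt3, Wnt4, Wnt10b, Lef1 and Rnf43 were called lower and the other 6 were not called.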
